A study of Mus musculus with 27 samples.

Results

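The adipocyte genes Adipoq, Fabp4, Plin1, Cfd, Cidec, Lpl, Lep and Retn were examined in RNA from colon epithelium scrapings. The 8 genes were taken by symbol from the 46078 genes counted in every library. All 8 were found, and all 8 passed the filter on low counts that left 16496 genes for testing. The libraries came from 27 male C57BL/6 mice, with no genotype other than the strain given, that were gavaged every 4 days for 28 days from 28 to 56 days of age. The 9 groups of 3 mice received sesame oil vehicle alone or vehicle with the dioxin TCDD, which stands for 2,3,7,8-tetrachlorodibenzo-p-dioxin, a ligand of the aryl hydrocarbon receptor. Its low doses were 0.01, 0.03 and 0.1 µg/kg, the middle doses 0.3, 1 and 3 µg/kg, and the high doses 10 and 30 µg/kg. Each mouse is named here by its number in the study's sample names.

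White adipocytes store triglyceride in a single large lipid droplet and secrete hormones that report the size of that store. They lie outside the gut epithelium, in the mesentery, around the serosa and in patches of the submucosa, so a scraping of colon epithelium is not a preparation of fat. Most of the 8 genes are transcribed from the same adipocyte program, driven by the nuclear receptor PPARG and CEBPA, and several are standard markers of the mature fat cell, whereas Lpl is also made by muscle, macrophages and other cells.

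Total gene counts per library ranged from 9305441 to 14371035. Cyp1a1, the classical aryl hydrocarbon receptor target, had 0 or 1 counts in the vehicle mice and 0 to 2 counts at 0.01, 0.03 and 0.1 µg/kg. From 0.3 µg/kg, with 5 to 7 counts, it rose with the labelled dose to between 23969 and 29287 counts at 30 µg/kg. At the low doses, 0.01 µg/kg included, Cyp1a1 therefore gave no check of the labels. The epithelial markers Epcam and Vil1 were abundant in every group, at 914 to 945 and 600.0 to 640 CPM in the vehicle mice. CPM are counts scaled to a library of 1000000 counts, after normalisation of the library size of each mouse. The index barcodes named with the libraries formed a first set of 16 mice, from vehicle to 0.3 µg/kg with 1 mouse at 1 µg/kg, and a second set of 11 mice at the higher doses. The libraries of mice 3, 14, 44 and 59 also carried more than 100 CPM of summed pancreatic enzyme transcripts. Mouse 66 at 30 µg/kg lay just under that limit, at 93.0 CPM.

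Coordinates of the 8 genes follow GRCm38, the build of the counts, with gene bounds from GENCODE M21. Plin1, at chr7:79720218-79732903 on the minus strand, encodes perilipin 1, which coats the lipid droplet and gates access of lipases to it. Cidec, at chr6:113424634-113435760 on the minus strand, encodes a droplet protein that promotes fusion of small droplets into large ones. Fabp4, at chr3:10204088-10208576 on the minus strand, encodes the fatty acid binding protein of the adipocyte cytosol. Lpl, at chr8:68880491-68907448 on the plus strand, encodes the lipase that frees fatty acids from circulating lipoproteins. The other 4 genes encode secreted proteins. Adipoq (adiponectin) lies at chr16:23146536-23158028, Cfd (complement factor D, or adipsin) at chr10:79890853-79892655, Lep (leptin) at chr6:29060220-29073877 and Retn (resistin) at chr8:3655770-3660110, all on the plus strand. No other annotated gene overlapped any of the 8.

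Promoter sequences from RefSeq (GRCm38.p6) were available here for 6 of the 8 genes, in 7 windows, since Cidec has a pair of start sites. The 250 bases before the start site were searched for GCGTG, the core of the dioxin response element to which the activated aryl hydrocarbon receptor binds, and for AGGTCA, the half-site of nuclear receptors of the PPAR-RXR kind, on both strands. GCGTG was found in 1 of the 7 windows and in 28.2% of 32851 promoters of the same length. AGGTCA was found in 0 of the 7 windows and in 14% of all promoters. The windows of Cidec and of Adipoq are shown because Cidec gave the smallest adjusted p at 30 µg/kg, and Adipoq is the most restricted of the hormones. The sequences read 5′ to 3′ on the strand of the gene, and the capitals mark GCGTG.
Cidec, inner start site, chr6:113434765-113435014, minus strand: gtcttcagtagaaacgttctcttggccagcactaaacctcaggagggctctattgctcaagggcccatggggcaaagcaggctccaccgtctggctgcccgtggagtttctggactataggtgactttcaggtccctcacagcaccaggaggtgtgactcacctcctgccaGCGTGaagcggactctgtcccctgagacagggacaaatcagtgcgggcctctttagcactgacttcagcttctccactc
Cidec, outer start site, chr6:113435761-113436010, minus strand: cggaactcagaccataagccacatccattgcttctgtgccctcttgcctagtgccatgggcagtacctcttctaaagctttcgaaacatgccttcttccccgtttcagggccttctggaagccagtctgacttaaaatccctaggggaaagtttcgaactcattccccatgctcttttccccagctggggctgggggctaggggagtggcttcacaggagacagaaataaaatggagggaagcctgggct
Adipoq, chr16:23146286-23146535, plus strand: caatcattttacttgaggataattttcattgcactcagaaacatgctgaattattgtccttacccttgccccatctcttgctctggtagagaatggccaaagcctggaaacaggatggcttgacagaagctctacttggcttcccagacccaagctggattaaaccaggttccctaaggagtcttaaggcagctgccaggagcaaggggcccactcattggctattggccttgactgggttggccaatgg
The match in the inner Cidec window begins 79 bases before the start site. The match describes letters in a window and is not evidence of a bound site.

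The 8 transcripts were scarce next to the epithelial genes and differed widely from mouse to mouse. Compared per kilobase of exon, the mean levels over 27 mice were 8.02 CPM per kb for Cfd, 7.14 for Cidec, 5.10 for Lpl, 2.96 for Adipoq, 2.41 for Fabp4, 0.858 for Retn, 0.624 for Plin1 and 0.286 for Lep. Per library the middle mouse had 27 counts of Adipoq, 79 of Fabp4 and 16 of Plin1, next to 48.5 CPM of Lpl. Leptin reached 0 counts in 5 of the 27 mice. The biological coefficient of variation within dose groups, as fitted by edgeR, was 0.27 for Lpl, 0.35 for Cidec and between 0.65 and 1.09 for the other 6 genes, against a median of 0.13 over all genes tested. Each of the 8 genes varied more within groups than 85.9% or more of the genes tested.

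Adipoq was highest in mouse 67 and in the mice at 0.01 µg/kg. The vehicle mice 2, 3 and 4 had 0.394, 1.90 and 3.53 CPM of Adipoq. The mice at 0.01 µg/kg had 15.3, 7.58 and 7.03 CPM of Adipoq, all above the vehicle mice. At 30 µg/kg mice 65, 66 and 67 had 3.09, 4.18 and 22.6 CPM of Adipoq. Mouse 67 was therefore the highest of the 27, while mouse 65 fell inside the vehicle range. Between 0.03 and 10 µg/kg Adipoq ranged from 0.205 CPM in mouse 19 to 5.56 CPM in mouse 58.

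Both lipid droplet genes were above all vehicle mice at 0.01 µg/kg. Plin1 was at 0.0984, 1.58 and 1.57 CPM in the vehicle mice, at 12.7, 5.14 and 9.02 CPM at 0.01 µg/kg and at 1.29, 1.25 and 13.4 CPM at 30 µg/kg. At 30 µg/kg only mouse 67 exceeded the vehicle mice in Plin1. Cidec was at 5.12, 7.27 and 11.2 CPM in the vehicle mice, at 32.2, 12.6 and 14.9 CPM at 0.01 µg/kg and at 9.92, 26.9 and 45.8 CPM at 30 µg/kg. Mice 66 and 67 lay above every vehicle mouse in Cidec, and mouse 65 lay between them. Over the other 6 doses Plin1 ran from 0 to 4.5 CPM, and Cidec from 6.22 to 15.4 CPM.

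Of the fatty acid handling genes, Fabp4 moved with Adipoq. Lpl lay above all vehicle mice at 0.01 µg/kg, while its mean changed little at 30 µg/kg. Fabp4 was at 0.787, 6.54 and 7.75 CPM in the vehicle mice, at 41.6, 20.6 and 21.9 CPM at 0.01 µg/kg and at 7.19, 13.4 and 64.8 CPM at 30 µg/kg. Lpl was at 36.3, 47.9 and 61.5 CPM in the vehicle mice, at 105, 77.5 and 84.6 CPM at 0.01 µg/kg and at 38.7, 32.4 and 93.4 CPM at 30 µg/kg. In Lpl mouse 67 lay above the vehicle range, mouse 65 inside it and mouse 66 under it.

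The remaining secreted factors were also highest in mouse 67 or mouse 9. Cfd was at 0.197, 5.80 and 2.55 CPM in the vehicle mice, at 27.8, 14.5 and 13.3 CPM at 0.01 µg/kg and at 3.24, 14.7 and 51.7 CPM at 30 µg/kg. Mice 66 and 67 exceeded the vehicle mice in Cfd. Lep had 3, 1 and 7 counts in the vehicle mice, 38, 18 and 29 counts at 0.01 µg/kg and 5, 0 and 42 counts at 30 µg/kg. Retn had 3, 9 and 15 counts in the vehicle mice, 58, 18 and 23 counts at 0.01 µg/kg and 11, 14 and 74 counts at 30 µg/kg. For both hormones mouse 67 alone exceeded the vehicle mice at 30 µg/kg.

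**Figure D1:**
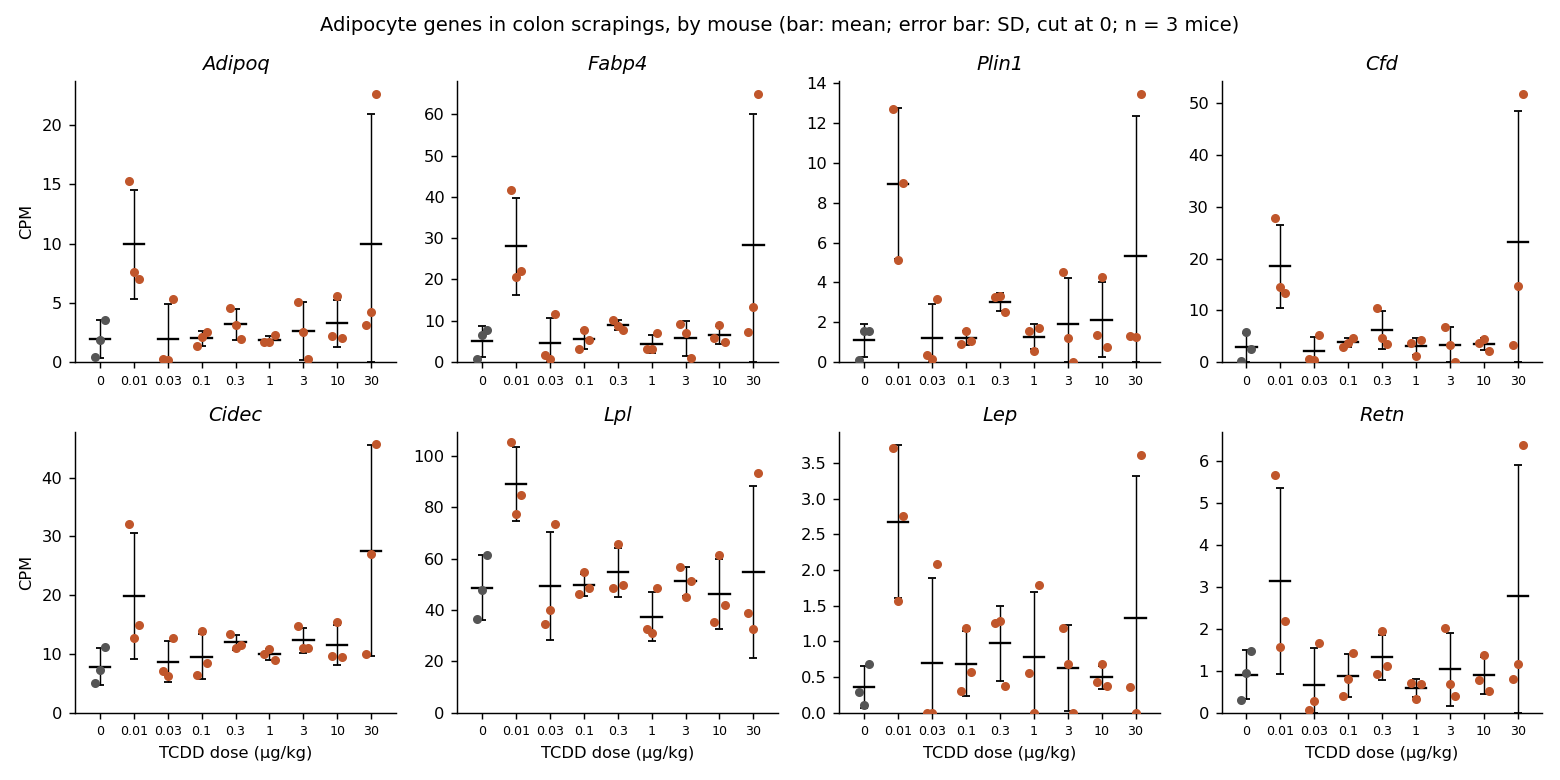
CPM of each adipocyte gene (y axis, linear, from 0) in every mouse by TCDD dose (x axis, µg/kg; 0 is vehicle). Points are mice, bars are means and error bars are SD (n = 3 per group, lower end cut at 0); the 3 mice at 0.01 µg/kg lie above the vehicle mice in all 8 panels, and 1 mouse at 30 µg/kg, mouse 67, lies far above its group in 7 of them, with Cidec the exception.

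The order of the group means did not follow the dose. The highest mean was at 30 µg/kg for Adipoq, Fabp4, Cfd and Cidec and at 0.01 µg/kg for Plin1, Lpl, Lep and Retn, and the other of these groups came second in all 8 genes. Mean Adipoq was 9.95 ± 10.95 CPM (SD, n = 3) at 30 µg/kg, 9.95 ± 4.6 CPM at 0.01 µg/kg and 1.94 ± 1.57 CPM in vehicle mice. Among the 8 steps between neighbouring group means, the ranges of the mice overlapped in all but 1 step for Adipoq, Fabp4 and Cfd, namely from 0.01 µg/kg to the next lower mean, and in every step for the other 5 genes. At least 1 step without overlap was found for 10.7% of the genes tested. In bulk RNA, more adipocytes in a scraping and more RNA per adipocyte cannot be told apart.

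Against vehicle, 3 of the 8 genes rose at 30 µg/kg. A gene was said to rise or fall if the edgeR quasi-likelihood test gave an adjusted p under 0.05, by Benjamini and Hochberg over all 16496 genes, with a change of at least 1.5-fold. By this rule 6.16% of all genes tested changed at 30 µg/kg, 2.95% higher and 3.21% lower. Cidec rose by a log2 fold change of 1.80 (SE 0.43, edgeR adjusted p = 0.00963). Cfd rose by 3.03 on the log2 scale (SE 0.94, edgeR adjusted p = 0.0390), and Fabp4 by 2.50 (SE 0.81, edgeR adjusted p = 0.0489). The hormones, the perilipin and the lipase did not pass. Their log2 fold changes were 2.34 for Adipoq (edgeR adjusted p = 0.0903), 2.28 for Plin1 (0.155), 1.79 for Lep (0.407), 1.59 for Retn (0.211) and 0.17 for Lpl (0.772). The 95% interval of the Lpl value ran from -0.46 to 0.80, and that of Adipoq from 0.56 to 4.12. The median log2 fold change of the 8 genes was 2.04, next to 0.00 over all genes tested. DESeq2 called 2 of the 8, Cidec and Fabp4, limma voom called 0, and edgeR called 0 when only the vehicle and 30 µg/kg mice were fitted. The shares of all genes called by these fits are not given here, so their counts cannot be set against the 6.16% of the main fit.

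No gene had all 3 mice at 30 µg/kg above all 3 vehicle mice, a separation found for 14.5% of the genes tested. An exact two-sided permutation test on CPM, which cannot go below p = 0.1 with 3 mice against 3, gave p = 0.2 for Adipoq, Fabp4, Cfd and Cidec and p = 0.5 to 0.9 for the other genes. The calls changed with single mice, as did the count over all genes, which was 1016 with every mouse, 623 without mouse 67, 593 without mouse 2, 660 without mouse 4 and 1080 without mouse 65. Without mouse 67 the edgeR test called 0 of the 8 genes, and the log2 fold changes ran from -0.91 for Lep to 1.66 for Cfd, with Cidec at 1.22 (edgeR adjusted p = 0.0837) and Adipoq at 0.90 (0.608). Without vehicle mouse 2, the vehicle mouse with the fewest adipocyte reads, it also called 0, with Cidec at 1.57 (edgeR adjusted p = 0.0583). Without vehicle mouse 4 it called Cidec alone. Without mouse 65, by contrast, it called 4, the same 3 genes and Adipoq at 2.78 (edgeR adjusted p = 0.0498). Leaving out the 4 mice over 100 CPM of pancreatic transcripts, an alternative chosen after the data were seen, left Cidec (1.75, edgeR adjusted p = 0.0485) as the only call. That fit called 781 of all genes, and it kept mouse 66, which had 93.0 CPM of these transcripts. With the index set as a term, 0 of the 8 were called, with Cidec at 1.83 (edgeR adjusted p = 0.179) and Lpl at -0.12 (0.935). Only the 1 µg/kg group held mice of both sets, 1 and 2, so that fit drew the set term from this group alone. The share of all genes it called is not given here, so the lost calls are not read as a result about the 8.

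Mouse 67 stood out in other tissue markers as well. Its summed level of 8 smooth muscle genes, 682 CPM, was the highest of the 27 mice, compared with 49.3 to 95.6 CPM in the vehicle mice and 306 and 103 CPM in mice 65 and 66. It was also highest in 6 endothelial markers, at 61.5 CPM against 25.2 to 32.9 CPM in the vehicle mice and 52.5 and 31.9 CPM in mice 65 and 66. Mouse 67 ranked 3 of 27 in fibroblast markers and 10 in macrophage markers, in both of which mouse 65 was the highest. Its epithelial markers, at 51246 CPM, lay inside the vehicle range of 43235 to 51686 CPM. The part of these tissues in the adipocyte result was not tested. Mouse 66 had 3.52 counts of Cfd per count of Adipoq, the highest ratio among the 20 mice with 20 or more Adipoq counts, 0.3 of Plin1, the lowest, and 0 counts of Lep. Its 6.44 counts of Cidec per count of Adipoq were within the range of those mice, which reached 6.67. In mouse 67 the same ratios were 2.03 for Cidec, 2.29 for Cfd and 0.595 for Plin1.

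At 0.01 µg/kg, the lowest dose, log2 fold changes against vehicle ran from 0.87 for Lpl to 3.04 for Plin1. Their median was 2.41, next to 0.01 over all genes tested. All 3 mice lay above all 3 vehicle mice in 8 of the 8 genes, as they did in 6.33% of the genes tested. The 8 genes are correlated across mice, with a median r of 0.80 as given below, so these are not 8 separate results. None passed the edgeR test, in which every adjusted p was 0.781 although the unadjusted p was under 0.05 for all 8 genes. DESeq2 and limma voom also called 0 of the 8, and 0 (0%) of all genes tested were called at this dose by edgeR, where 1047 had an unadjusted p under 0.05. Cidec was at 1.33 (SE 0.43), Fabp4 at 2.48 (SE 0.81) and Adipoq at 2.35 (SE 0.89), which were close to the values at 30 µg/kg for the last pair. Both comparisons share the vehicle mice, including mouse 2. The summed smooth muscle genes were at 269, 166 and 65.8 CPM in mice 9, 11 and 14, against 49.3 to 95.6 CPM in the vehicle mice, so that mouse 14 lay inside the vehicle range. Genes of fat synthesis summed to 2002 to 2911 CPM, above the vehicle range of 1756 to 1896 CPM. The endothelial markers, at 22.1 to 24.6 CPM, lay under the vehicle range. The part of these tissues in the result at 0.01 µg/kg was not tested.

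At the doses in between, 0 of the 8 genes passed the edgeR test, and none had an unadjusted p under 0.05. DESeq2 and limma voom called 0 of the 8 there as well. The shares of all genes called were 0% at 0.03, 0.1 and 0.3 µg/kg, 0.2% at 1 µg/kg, 0.697% at 3 µg/kg and 1.78% at 10 µg/kg. The median log2 fold change of the 8 genes was -0.02 at 0.03 µg/kg, 0.13 at 0.1 µg/kg, 0.77 at 0.3 µg/kg, 0.03 at 1 µg/kg, 0.30 at 3 µg/kg and 0.39 at 10 µg/kg. The medians thus lay nearer to 0 at these 6 doses than at the lowest and the highest dose.

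**Figure D2:**
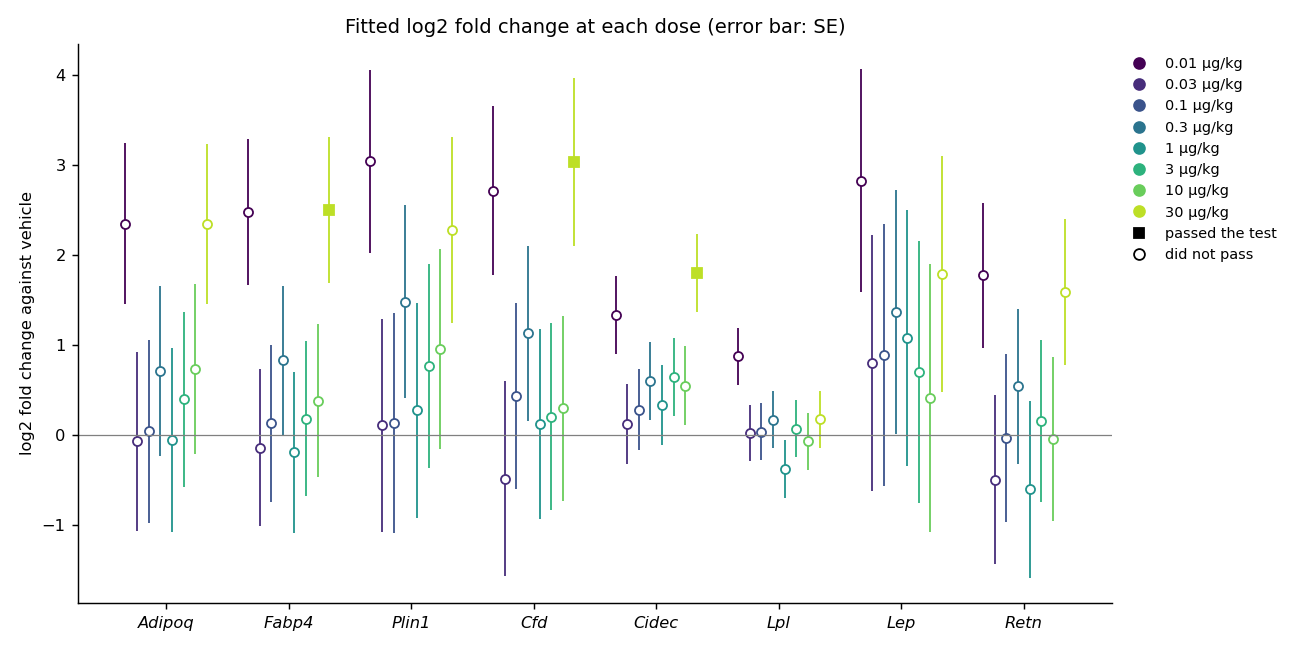
Fitted log2 fold change against vehicle (y axis) of each adipocyte gene (x axis) at the 8 doses (colours, low to high from left to right), with SE as error bars. Filled squares passed the edgeR test with a change of at least 1.5-fold (Cidec, Cfd and Fabp4 at 30 µg/kg) and open circles did not; the 0.01 µg/kg values stand about as high as those at 30 µg/kg for Adipoq and Fabp4.

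A trend over the rank of the dose, from 0 for vehicle to 8 for 30 µg/kg, was called for 0 of the 8 genes by edgeR (adjusted p under 0.05), while 23.4% of all genes tested were called, 11.8% rising and 11.6% falling. DESeq2 also called 0. Cidec had the smallest p, with 0.10 on the log2 scale per dose step (SE 0.05, edgeR adjusted p = 0.126), and it was the only gene with an unadjusted p under 0.05. Without mouse 9 of the 0.01 µg/kg group the Cidec slope was called at 0.15 (edgeR adjusted p = 0.00637). Without mouse 67 the Lpl slope was called in the other direction, at -0.09 (edgeR adjusted p = 0.0404).

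The doses of 3, 10 and 30 µg/kg all lay in the second index set, so these groups could be compared without a change of set. None of the 8 genes passed the edgeR test at 10 µg/kg, where 0.0485% of all genes were called, or at 30 µg/kg, where 0.461% were called. An unadjusted p under 0.05 was found for 0 of the 8 at 10 µg/kg and for 4 at 30 µg/kg. DESeq2 and limma voom called 0 in both comparisons. At 30 µg/kg against 3 µg/kg the log2 fold changes were 2.83 for Cfd (SE 0.91, edgeR adjusted p = 0.189), 2.31 for Fabp4 (SE 0.79, 0.224), 1.94 for Adipoq (SE 0.84, 0.388), 1.16 for Cidec (SE 0.41, 0.248) and 0.10 for Lpl (SE 0.31, 0.942). Without mouse 65, Cidec was called, at 1.56 (edgeR adjusted p = 0.0345).

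The 8 genes went up and down together across mice. Among the 28 pairs, the Pearson correlation of log2 CPM over 27 mice ran from 0.52 to 0.97 with a median of 0.80, and all 28 had an adjusted permutation p under 0.05 (at most 0.0043, by Benjamini and Hochberg over the 28 pairs). Adipoq and Fabp4 were closest, with r = 0.97 (permutation p = 1e-05, the smallest that 100000 resamples can give; adjusted p = 1.33e-05) and a Spearman rho of 0.94 (permutation p = 1e-05, adjusted p = 1.65e-05). When the 2 mice with the most extreme Adipoq values were left out, r was 0.96. Cidec and Lep had the lowest Pearson r over the 27 mice, with r = 0.52 (permutation p = 0.0043) and rho = 0.58 (permutation p = 0.00201, adjusted p = 0.00208), whereas the lowest rho, 0.56, was that of Cfd and Lpl (permutation p = 0.00293). For Cidec and Lep, leaving out the 2 mice with the most extreme Cidec values took r to 0.29. Within the index sets, r of Cidec and Lep was 0.84 in the first and 0.30 in the second. For Cidec and Lpl, r was 0.58 over 27 mice (permutation p = 0.00141, adjusted p = 0.00148) and 0.31 without such mice, so the Pearson values of both pairs depended on 2 mice.

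The genes also moved together among mice that received the same dose. After each group mean was subtracted, the 28 correlations ran from 0.50 to 0.95 with a median of 0.77, and all 28 kept an adjusted permutation p under 0.05. Within the first index set of 16 mice the median r was 0.87, and 28 of 28 pairs passed. Within the second set of 11 mice the median r was 0.76, all 28 were positive and 21 passed, and 5 of the 7 that did not involved Lpl. The median r of a gene with the other 7 was 0.91 for Adipoq, 0.90 for Fabp4 and 0.88 for Plin1, and lowest for Cidec (0.74) and Lpl (0.73). The genes of a mouse share a library, its depth and its RNA preparation.

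**Figure D3:**
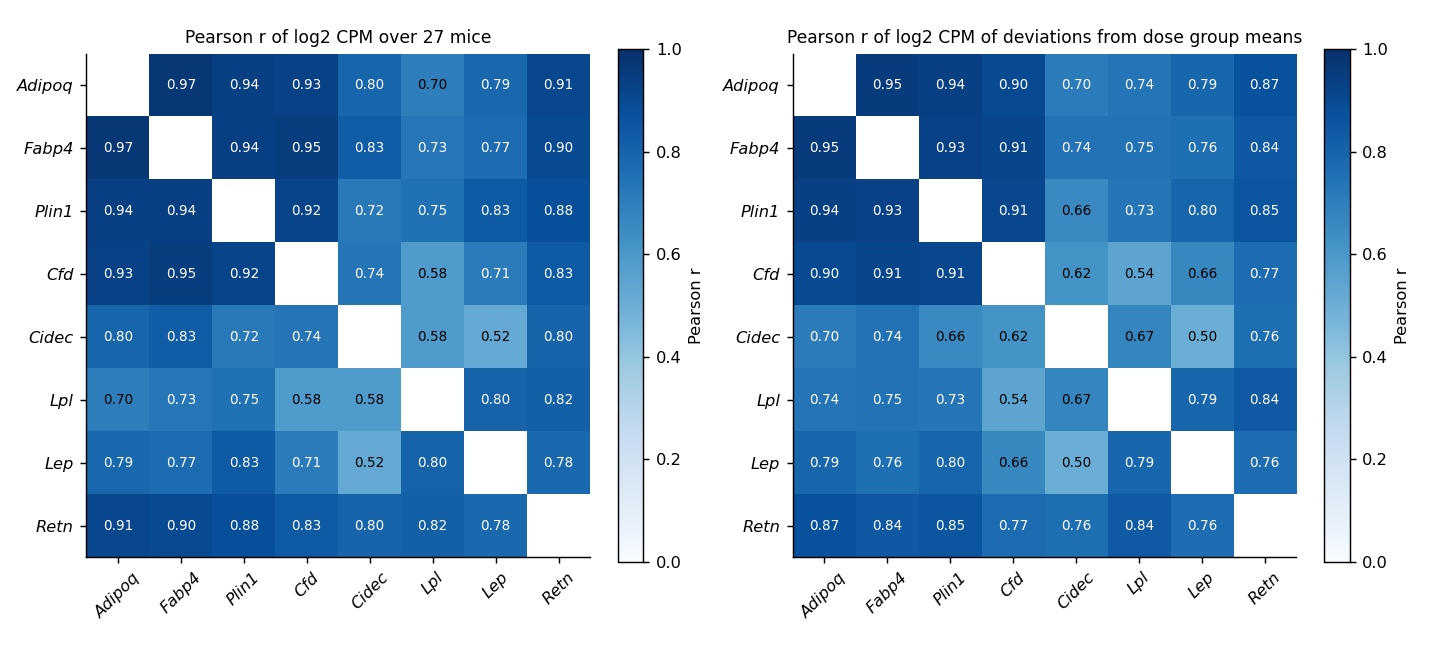
Pearson r of log2 CPM for each pair of adipocyte genes, over 27 mice (left) and for deviations from the dose group means (right); darker blue is a higher r on a scale from 0 to 1. Adipoq, Fabp4, Plin1 and Cfd form the darkest block, at 0.92 to 0.97 on the left, and the pair of Cidec and Lep is the palest in both panels, at 0.52 and 0.50.

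The same pair of mice stood at the top for each gene. Mouse 67 ranked first or second of 27 in all 8 genes, and so did mouse 9 of the 0.01 µg/kg group. At the other end, vehicle mouse 2, mice 18 and 19 at 0.03 µg/kg and mouse 52 at 3 µg/kg had only 3 to 4 counts of Adipoq each. The sum of the 6 genes other than Lpl and Cidec was 21, 40, 28 and 22 counts in these 4 mice, against 1091 counts in mouse 9 and 1886 counts in mouse 67. These 4 mice belonged to 3 dose groups, one of them vehicle. Mouse 52 was not low in every gene, and ranked 13 of 27 in Cidec and 11 in Lpl.

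Lpl and Cidec kept a floor in mice that had almost no Adipoq. In the 4 mice with 5 or fewer Adipoq counts, Lpl still had 369 to 662 counts and Cidec 52 to 143 counts, whereas Plin1 had 0 to 5, Cfd 0 to 8 and Lep 0 to 3 counts. In the 20 mice with 20 or more Adipoq counts, the counts per count of Adipoq were 1.63 to 4.04 for Fabp4 (median 2.67), 0.204 to 0.615 for Retn (median 0.312) and 0.3 to 1.31 for Plin1 (median 0.70). The same ratio was 4.14 to 26.3 for Lpl. Lpl spanned 31.1 to 105 CPM over all 27 mice, the narrowest proportional span of the 8 genes, and Fabp4 spanned 0.787 to 64.8 CPM.

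**Figure D4:**
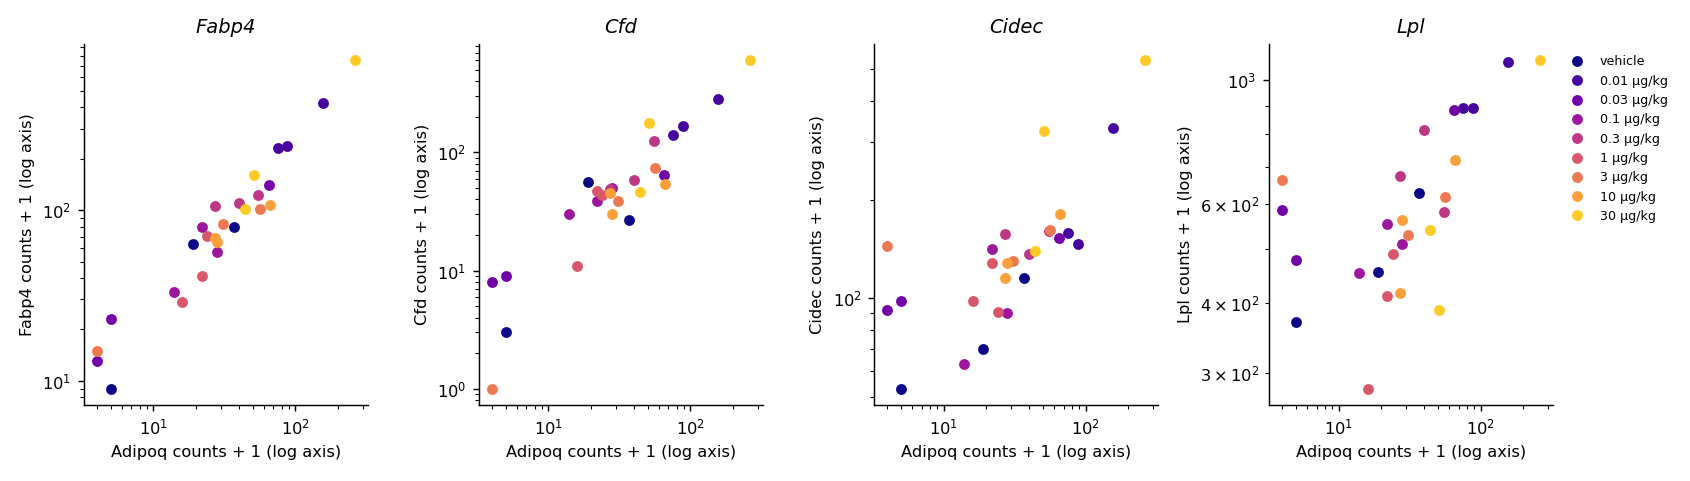
Counts of Fabp4, Cfd, Cidec and Lpl (y axes) against counts of Adipoq (x axes) in the 27 mice, each plus 1 on log axes, coloured by dose. Fabp4 and Cfd fall with Adipoq to 14 or fewer counts at the left end in mouse 52, while Cidec stays at 52 or more and Lpl at 280 or more counts in every mouse.

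Several genes known from fat cells had the patterns most like the 8. The mean log2 CPM of the 8 was taken as an adipocyte score, and each of the 16488 other genes tested was ranked by its Pearson r with it over 27 mice, as a description. The median r of all those genes was 0.01, and 21 reached 0.8. Among the first 15 were Car3 (0.99), Cd36 (0.97), Plin4 (0.95), Nnat (0.91), Aoc3 (0.91), A530016L24Rik (0.90), Abcd2 (0.89), Hp (0.89), Thrsp (0.87), Ccdc80 (0.87), Serpina3c (0.86), Slc7a10 (0.86), Cyp2e1 (0.85) and Nat8l (0.85). Of the 15, 6 were in the lists of adipocyte and lipid genes used here. Car3 encodes a carbonic anhydrase abundant in fat, Cd36 a fatty acid transporter, Plin4 a droplet coat protein, Aoc3 an amine oxidase of the adipocyte surface and Thrsp a regulator of lipogenesis. Car3 ran from 16 counts in mouse 52 and 38 in mouse 2 to 1132 in mouse 9 and 1982 in mouse 67. Plin4 had 9 to 21 counts in the 4 mice with least Adipoq and 651 in mouse 67. For all 15, r was at least 0.779 after the group means were subtracted.

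Other genes of the adipocyte were followed in lists that share no gene with the 8. Over all genes tested, 2.95% rose and 3.21% fell at 30 µg/kg. Of 11 tested genes in the list named adipocyte-restricted, 2 rose at 30 µg/kg and 0 fell, and the median over the list was 1.04 on the log2 scale. Their summed level was 65.4 and 65.2 CPM in mice 65 and 66, inside the vehicle range of 37.1 to 76.3 CPM, and 275 CPM in mouse 67. At 0.01 µg/kg the median of the list was 2.28, and the summed level, 122 to 204 CPM, lay above the vehicle mice in all 3. Lipe, the hormone-sensitive lipase, rose by 1.04 (SE 0.23, edgeR adjusted p = 0.00609), and Sncg by 3.91 (SE 1.08, edgeR adjusted p = 0.0232) from at most 0.196 CPM in vehicle mice. Acvr1c fell over dose rank, by 0.05 per step (edgeR adjusted p = 0.0291), as the only gene of that list with a called slope. In the vehicle mice Acvr1c was at 21.3 to 30.3 CPM and Lipe at 8.95 to 10.96 CPM. This range includes mouse 2, which had 4 counts of Adipoq. Both genes thus kept a floor with almost no Adipoq, and both are part of the summed level of the list. The name of the list therefore does not hold for Acvr1c and Lipe in these scrapings. The source of their floor was not tested. Of 10 tested lipid droplet and lipolysis genes, Lipe again included, 5 rose at 30 µg/kg and 0 fell. Plin4 rose by 2.96 (SE 0.80, edgeR adjusted p = 0.0202) and Plin5 by 2.08 (SE 0.66, 0.0433). Cideb rose by 0.77 (SE 0.14, edgeR adjusted p = 0.00155), from 24.9 to 28.8 CPM in the vehicle mice to 42.7 to 49.1 CPM at 30 µg/kg with no overlap.

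The enzymes of fat synthesis and the regulators of the program had medians of 0.14 and 0.16 on the log2 scale at 30 µg/kg. Of 12 tested synthesis genes, 3 rose at 30 µg/kg and 0 fell, namely Dgat2 at 1.01, Dgat1 at 0.77 and Pck1 at 0.71 on the log2 scale (edgeR adjusted p = 0.0163, 0.0014 and 0.00359). Over dose rank 4 rose and Me1 fell, where 11.8% of all genes tested rose and 11.6% fell. Of 7 tested adipogenic transcription factors, Klf15 rose by 1.60 (SE 0.35, edgeR adjusted p = 0.00527), and Cebpd, an early factor of the program, fell from 19.9 to 39.8 CPM in the vehicle mice to 10.1 to 11.1 CPM (edgeR adjusted p = 0.00101). Pparg, also expressed by colon epithelium, was at 82.1 to 83.1 CPM in the vehicle mice and 91.8 to 114 CPM at 30 µg/kg, with a log2 fold change of 0.27 (edgeR adjusted p = 0.256). Of 7 tested genes of fat and glucose uptake, 0 passed edgeR at 30 µg/kg, with Cd36 at 1.72 (edgeR adjusted p = 0.116). Of 6 adipokine receptors, 0 passed with the fold minimum, and 3 rose over dose rank, Cdh13, Adipor2 and Cap1. The brown adipocyte genes Ucp1, Cidea, Dio2, Cox8b and Elovl3 had 5 or fewer counts in every mouse, and of the 3 tested genes of that list 0 passed at 30 µg/kg.

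Over 27 mice, 5 lists of adipocyte and lipid genes had r over 0.5 with the adipocyte score. Taken as the mean log2 CPM of each list over 27 mice, r with the score was 0.97 for the adipocyte-restricted genes (rho 0.91), 0.88 for fat and glucose uptake (rho 0.89), 0.74 for lipid droplet genes (rho 0.61), 0.70 for the transcription factors (rho 0.59) and 0.66 for fat synthesis (rho 0.54). With the 2 mice of most extreme score left out, these values were 0.96, 0.81, 0.61, 0.49 and 0.58. Among the other lists, r was 0.37 for smooth muscle, 0.33 for fibroblast, 0.27 for mesothelium, 0.19 for endothelium, 0.17 for macrophage, 0.16 for adipokine receptors, -0.01 for pancreatic acinar genes, -0.01 for paralogs of the 8 genes, -0.14 for colon epithelium and -0.36 for brown adipocyte genes. The last list was scored on 3 tested genes, without the 5 near 0, and had a rho of -0.50. The rho of the rest of these other lists ran from -0.18 for colon epithelium to 0.29 for smooth muscle. Within the index sets, r was 0.98 in the first and 0.96 in the second for the adipocyte-restricted genes, and 0.90 in both for fat and glucose uptake. Fat synthesis had 0.86 in the first set and 0.38 in the second. In the second set endothelium reached 0.52 (-0.17 in the first) and colon epithelium -0.58 (0.22 in the first).

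**Figure D5:**
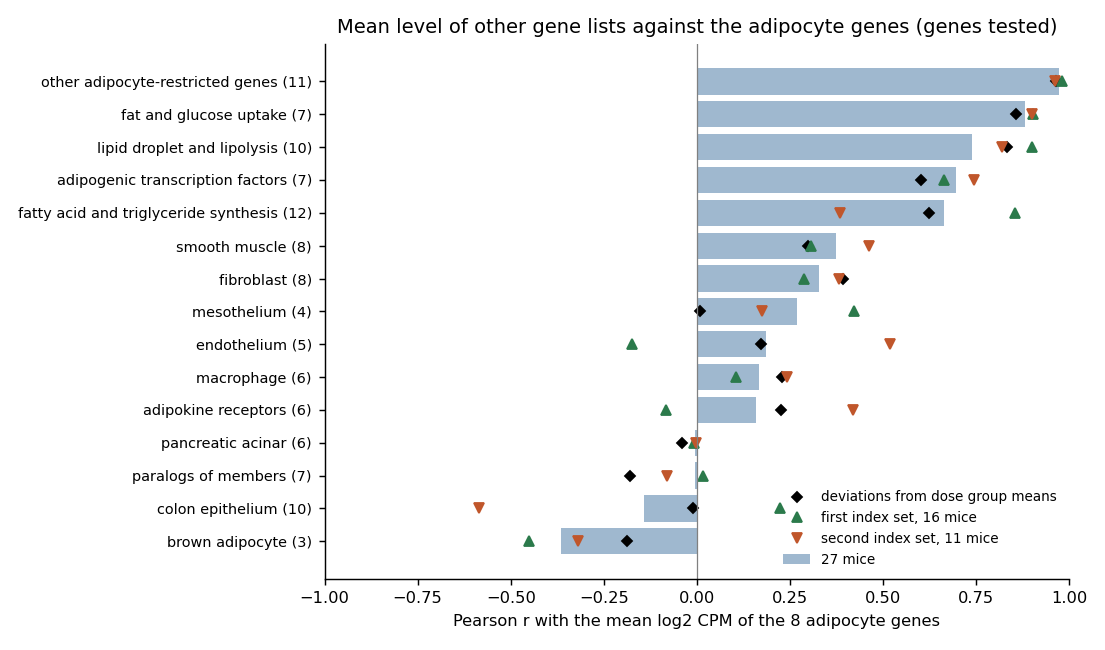
Pearson r (x axis) of the mean log2 CPM of 15 gene lists (y axis, with the number of genes tested) with the mean log2 CPM of the 8 adipocyte genes. Bars are 27 mice, diamonds are deviations from dose group means and triangles are the first (16 mice) and second (11 mice) index sets; 5 lists of adipocyte and lipid genes have bars over 0.5, led by the adipocyte-restricted genes at 0.97.

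Markers of other tissues were read by the same rule. Over all genes tested, 2.95% rose at 30 µg/kg, and 11.8% rose over dose rank, where no fold minimum was set. Of 8 smooth muscle genes, 0 passed edgeR at 30 µg/kg although their median was 2.34 on the log2 scale, and 5 rose over dose rank, Myh11, Des, Cnn1 and Tagln with the largest changes. Of 4 tested mesothelial genes, 0 passed at 30 µg/kg and 2, Msln and Upk3b, rose over dose rank. Of 5 tested endothelial genes, 3 rose at 30 µg/kg, with Cdh5 at 2.34 (SE 0.39, edgeR adjusted p = 0.000589), Kdr at 1.26 and Vwf at 0.95. Of 8 fibroblast genes Dcn rose, by 1.51 (SE 0.47, edgeR adjusted p = 0.0398), and of 6 macrophage genes 0 passed. Of 6 skeletal muscle genes only Acta1 could be tested, and it rose by 5.21 (SE 0.26, edgeR adjusted p = 1.95e-12), with Myh4, Tnnt3 and Actn3 at 5 or fewer counts in every mouse. Ret was the 1 of 2 tested enteric neuron and glia genes that rose, at 1.13 (edgeR adjusted p = 0.00216). Of 10 colon epithelium genes, Lgr5, the marker of crypt stem cells, fell by 1.40 (SE 0.19, edgeR adjusted p = 6.06e-05), and the other 9 did not pass with the fold minimum. Of 6 pancreatic genes 0 passed.

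Relatives of the 8 genes, several of them epithelial, were read as well. Among 7 tested paralogs, 3 rose and 1 fell at 30 µg/kg, where 2.95% of all genes tested rose and 3.21% fell. The intestinal fatty acid binding proteins rose, Fabp1 by 3.40 (SE 0.86, edgeR adjusted p = 0.0137) from a low level of 0.0984 to 0.316 CPM in the vehicle mice and Fabp2 by 1.21 (SE 0.16, edgeR adjusted p = 6.06e-05). The third was Cideb, described above. Retnlb, the goblet cell relative of resistin, fell by 1.96 (SE 0.58, edgeR adjusted p = 0.0315), whereas Retn itself was at 1.59 on the log2 scale and did not pass.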

How the data were processed

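RNA from colon epithelium scrapings of 27 mice was sequenced. The authors deposited raw counts per Ensembl gene for each library, and submitters' processing notes name FastQC 0.11.3, Trimmomatic 0.33, TopHat2 2.1.0, SAMtools 1.2.0, HTSeq 0.6.1 and the GRCm38 build. Reads without a gene or unique position (63.2 to 68.5% of the rows' total per library) were left out. Counts were normalised by TMM, filtered (filterByExpr, minimum count 10) and fitted with edgeR 4.0.16 in R 4.3.3. The dispersion of each gene was estimated over all 27 mice. Log2 CPM used a prior count of 2. DESeq2 1.42.0 and limma 3.58.1 (voom, posterior probability of at least 0.8) were alternatives. The fits were tested on simulated data. Replicates are separate mice. The genes named were the 8 members, up to 4 called genes per list at 30 µg/kg or for the slope, and the 15 genes most like the score, of which 1 is not reported here. Pparg, Epcam, Vil1 and markers near 0 counts were named after their values were seen. Genes and lists were chosen with earlier results of these data known. The adipocyte score received no p. Index sets were read from barcodes named with the libraries.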

Additional observations from a re-analysis of the deposited data

How the results depend on the processing

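The count of 3 adipocyte genes called at 30 µg/kg was the least stable result. It was 2 with DESeq2, 0 with limma voom, 0 when only the groups compared were fitted and 0 with the index set as a term. The set term was estimated from the mice at 1 µg/kg alone. The count was 1 without the 4 mice over 100 CPM of pancreatic transcripts, an alternative chosen after seeing the data. Leaving out 1 mouse at a time gave 0 to 4. Against 3 µg/kg in the second index set, 1 gene (Cfd) was called without the filter on low counts, and leaving out 1 mouse gave 0 to 1. For the slope, leaving out 1 mouse gave 0 to 1. The log2 fold change of Lpl at 30 µg/kg turned to -0.12 with the index set as a term and ran from -0.45 to 0.44 with 1 mouse left out, and that of Lep ran from -0.91 to 2.61. The cause was not tested. In all, 11 counts under alternatives moved by more than 1.5 times and 172 did not, among the latter the 2 with DESeq2, 4 without the filter on low counts, and 0 calls at every dose from 0.01 to 10 µg/kg. A count that stayed at 0 was scored as not moved, and from 0.01 to 0.3 µg/kg edgeR called 0 of all genes tested. The tally of 172 is therefore no measure of stability. In the second index set 21 of the 28 gene pairs passed in place of 28, and endothelium replaced fat synthesis among the 5 lists with r over 0.5. No paired analysis was possible because the mouse numbers differ between groups. Values of Lep and Retn rest on few counts. Fabp4 had like log2 fold changes at 0.01 and 30 µg/kg, 2.48 and 2.50, with unadjusted edgeR p of 0.00566 and 0.00530 and adjusted p of 0.781 and 0.0489.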
